A study of Mus musculus with 7 samples.

Results

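Glypicans are a gene family of which mice have Gpc1 to Gpc6, and all 6 were taken by symbol from a table of 19257 genes measured in bulk RNA of endpoint mouse gliomas. The family was read in 7 libraries, each from a different brain, of which 3 were 3xCR tumors (replicates 2, 3 and 4) and 4 were GPC6 tumors (replicates 1, 2, 3 and 4). The question was which glypicans differ between tumors with and without added GPC6, and how each relates to the level of Gpc6 itself. Endpoint means that the animal had reached the stage of illness at which it had to be killed, so ages are not matched between groups and are not given per library in the sources used here.

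In both groups, progenitor cells at the ventricles of mouse embryos were electroporated in utero with a plasmid expressing Cas9 and guides against tumor suppressors that include Trp53 and Nf1. A piggyBac transposon, which inserts into the genome, served to mark cells with a GFP reporter, to overexpress GPC6, or to do both. The labels give the genotype of 3xCR as control, and GPC6 tumors differ from them by the added GPC6. The promoter of that transposon, the species of its GPC6 cDNA and whether it holds untranslated sequence are not given in the sources used here. Animals were of CD-1 and C57BL/6 backgrounds and of either sex, without an assignment to libraries. Tissue was taken under fluorescence and was not sorted, so each library mixes tumor cells with the neurons, glia, vessels and immune cells of that piece of brain.

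Glypicans are core proteins that carry heparan sulfate chains and are held on the outer face of the cell membrane by a glycosylphosphatidylinositol anchor. Through their sugar chains and core they bind growth factors and morphogens such as FGF, Wnt and Hedgehog proteins, and enzymes can release them from the membrane. In the brain, Gpc4 and Gpc6 are known as proteins released by astrocytes that promote the formation of excitatory synapses, through neuronal pentraxin 1 and AMPA receptors among others.

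Because GPC6 was added as a transgene, it matters how alike the members are in sequence. Coding sequences of GRCm38 were aligned to that of Gpc6, and identity was 68.5% for Gpc4, 63.4% for Gpc1, 59.5% for Gpc2, 59.1% for Gpc5 and 57.9% for Gpc3. The longest exact run shared with Gpc6 was 17 bases in Gpc4, 15 in Gpc3, 14 in Gpc1, 13 in Gpc5 and 12 in Gpc2, and no word of 25 bases was shared by any of them. The 30-base windows around the runs of Gpc4 and Gpc3 are shown because these are the longest exact matches to mouse Gpc6, with the shared run in capitals and each sequence read 5′ to 3′ on its gene's strand.
Gpc4 (chrX:52074498-52074527, minus strand, coding exon 3 of 9): atgttaAATGACTTCTGGGCTCGccttctg
Gpc6 (chr14:117435810-117435839, plus strand, coding exon 3 of 10): atgctcAATGACTTCTGGGCTCGgctcctg
Gpc3 (chrX:52388116-52388145, minus strand, coding exon 5 of 8): ataccctGTGCTGGAACGGACAagaacttg
Gpc6 (chr14:117951241-117951270, plus strand, coding exon 8 of 10): aggaggaGTGCTGGAACGGACAcagcaaag
Even in these windows the members differ on either side of the capitals. How reads that fit several genes were counted is not stated by the study.

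The libraries held 7197692 to 18879762 reads on genes with a median of 10566182. Values are normalized counts, which are reads scaled by 1 size factor for each library, and in the library with fewest reads a count of 0 would still allow 4.64 of them, which covers counting error only. Some libraries stood apart in their cell type markers, given here as a score, the mean over a marker list of each gene's log2 value minus its average over the 7 libraries. GPC6 replicate 1 had the highest neuron score (2.35, against -1.74 to 1.45 in the other libraries) and the lowest score of proliferating cells (-3.11, against -0.13 to 1.11). 3xCR replicate 4 had the lowest neuron score (-1.74), the lowest astrocyte score (-1.40) and the highest score of mural cells and fibroblasts (2.08). The defining markers of neurons, astrocytes, oligodendrocytes and their precursors, microglia and endothelial cells were above 0 in all 7 libraries. The log2 of each normalized count plus 1 entered a limma fit of GPC6 against 3xCR, over 14782 genes whose normalized count averaged 10 or more, with Benjamini-Hochberg adjustment. All 6 glypicans were tested, and each averaged above 10 in either group.

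Mouse Gpc6, on which reads of the added GPC6 can fall as far as its sequence matches, lies on chr14:116925315-117976544 of GRCm38 on the plus strand. Its normalized counts were 217, 226 and 126 in 3xCR replicates 2, 3 and 4. They were 675, 263, 3434 and 5084 in GPC6 replicates 1, 2, 3 and 4. The groups did not overlap, but the library labelled GPC6 replicate 2 lay just above the highest 3xCR tumor, while replicates 3 and 4 lay far above all others. The 95% counting intervals of GPC6 replicate 2 (232 to 296) and 3xCR replicate 3 (199 to 256) overlapped. Counting error alone therefore does not separate this pair. The means were 189 ± 55.4 (SD, n = 3) and 2364 ± 2296 (SD, n = 4). On the log2 scale Gpc6 was higher by 2.85 in GPC6 tumors, with a standard error of 0.98 and a 95% interval of 0.59 to 5.11. The unadjusted p of limma was 0.0197 and the adjusted p was 0.730, so the difference did not pass the threshold of 0.05. The exact two-sided permutation test of the counts gave p = 0.0571, the smallest value that 3 against 4 libraries can reach. Without the library labelled GPC6 replicate 2 the log2 difference was 3.63 (limma adjusted p = 0.526), and the unadjusted limma p was 0.0660 without 3xCR replicate 4 and 0.0506 without GPC6 replicate 3.

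The spread of Gpc6 within the GPC6 tumors was itself wide. Its lowest and highest count there differed 19.3-fold, and the SD of its log2 values was 2.00, larger than that of 96.4% of the genes tested. In 3xCR tumors, where no GPC6 was added, the range was 1.80-fold and the SD was 0.47, larger than that of 62.7% of genes. In bulk tissue, fewer cells that carry the transposon and less RNA per such cell cannot be told apart.

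Across all genes, 0 of 14782 passed an adjusted p of 0.05 in limma (0%), and 689 (4.66%) had an unadjusted p below 0.05. Tests on the recovered reads called 0 in edgeR and 4 in DESeq2, no glypican among the 4. Of the 689, 405 were higher in GPC6 tumors (2.74%) and 284 lower (1.92%), and when libraries were scaled to an equal upper quartile the calls were 336 higher and 381 lower. Of the 6 glypicans, 2 were below an unadjusted p of 0.05, Gpc6 and Gpc3, both higher. Groups without overlap were found for 934 genes (6.32%), 414 of them higher in GPC6 tumors (2.8%) and 520 lower (3.52%), and among glypicans only for Gpc6. The number of unadjusted calls depended on single libraries, as it was 1401 without the library labelled GPC6 replicate 2, 1159 without GPC6 replicate 4, 1137 without 3xCR replicate 2, 385 without GPC6 replicate 3, 379 without 3xCR replicate 3, 459 without GPC6 replicate 1 and 119 without 3xCR replicate 4.

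**Figure D1:**
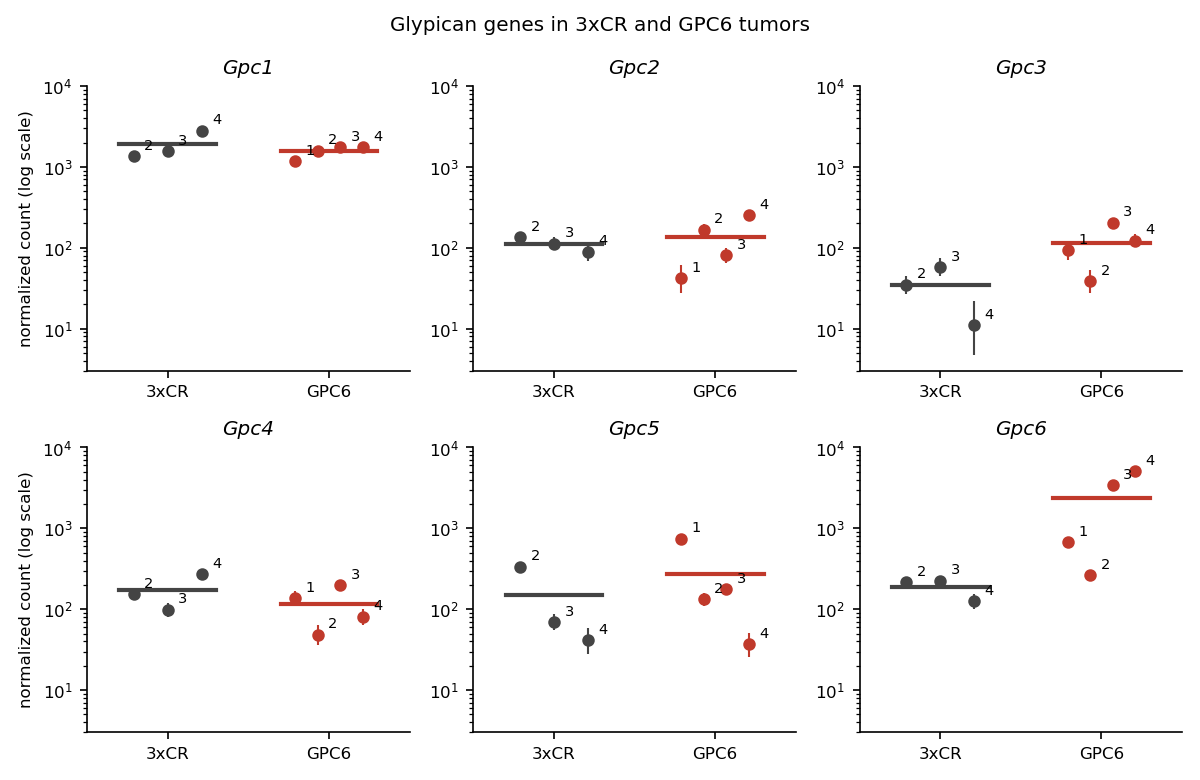
Normalized counts of Gpc1 to Gpc6 on a log axis in the 3xCR (grey) and GPC6 (red) libraries, with points numbered by replicate, 95% counting intervals as vertical lines and group means as horizontal lines. The groups overlap in every panel except that of Gpc6, where the points of the GPC6 tumors run from 263 to 5084.

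Gpc3, a glypican known for binding Hedgehog proteins and mutated in an overgrowth syndrome, lies on chrX:52272426-52613950 on the minus strand. Its normalized counts were 35.1, 57.7 and 11.0 in the 3xCR tumors. In GPC6 replicates 1, 2, 3 and 4 they were 92.7, 38.5, 205 and 122. GPC6 replicates 1, 3 and 4 exceeded all 3xCR tumors, and the library labelled GPC6 replicate 2 lay within the 3xCR range. Means were 34.6 ± 23.3 (SD, n = 3) and 115 ± 69.5 (SD, n = 4). The log2 difference was 1.74 with a standard error of 0.71, an unadjusted p of 0.0408 and an adjusted p of 0.730 in limma. The exact permutation test gave p = 0.114. In 5 of the 7 fits that leave out 1 library the unadjusted limma p of Gpc3 was above 0.05, at 0.0602 to 0.149, and the log2 difference was lowest, 1.10, without 3xCR replicate 4.

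Gpc4, the closest relative of Gpc6 in coding sequence and also released by astrocytes, lies next to Gpc3 on chrX:52053021-52165252, 107 kb away and on the same strand. It had normalized counts of 153, 98.6 and 269 in 3xCR tumors and 136, 48.4, 197 and 81.3 in GPC6 tumors. The groups overlapped widely, with the lowest value in the library labelled GPC6 replicate 2 and the highest in 3xCR replicate 4. The log2 difference was -0.65 with a standard error of 0.55 and a 95% interval of -1.92 to 0.62 (limma adjusted p = 0.749). With weights per library it was 0.57, so its direction was not settled. Over the 7 libraries Gpc4 and its neighbour Gpc3 had r = -0.20.

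Gpc5 lies upstream of Gpc6 on the same strand, at chr14:115092215-116525179, with 400 kb between them. It is known in the brain as a glypican of astrocytes. Its normalized counts were 338, 69.8 and 41.4 in 3xCR tumors and 747, 132, 176 and 37.0 in GPC6 tumors. The highest and the lowest Gpc5 count both came from GPC6 tumors, a 20.2-fold range, and the 3xCR tumors spanned 8.15-fold. The SD of its log2 values was larger than that of 96.0% of genes in 3xCR tumors and 93.9% in GPC6 tumors. The log2 difference was 0.68 with a standard error of 1.05, a 95% interval of -1.76 to 3.11 and an adjusted p of 0.858 in limma. Without GPC6 replicate 1, the library of highest Gpc5, it was -0.06.

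Gpc1, a glypican that binds FGF2 and is widely expressed in brain, lies on chr1:92831645-92860779 on the plus strand, and 18.9% of its exon bases overlap Ankmy1 on the opposite strand. It had normalized counts of 1371, 1582 and 2807 in 3xCR tumors and 1172, 1587, 1772 and 1757 in GPC6 tumors. These counts varied less than those of the other 5 members, with a 2.40-fold range over all 7 libraries. The log2 difference was -0.24 with a standard error of 0.30 and a 95% interval of -0.92 to 0.45 (limma adjusted p = 0.823), and it was 0.07 without 3xCR replicate 4.

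Gpc2, known from developing neurons and from neuroblastoma, lies on chr5:138273655-138280005 on the minus strand. Of its annotated exon bases 55.6% are shared with Gm43720 on the same strand. How reads on shared bases were counted is not given in the sources used here, so the effect on its counts is not known. Its normalized counts were 135, 113 and 89.8 in 3xCR tumors and 41.7, 167, 80.7 and 252 in GPC6 tumors. The GPC6 tumors surrounded the 3xCR tumors on either side, with a 6.04-fold range among them. The log2 difference was -0.02 with a standard error of 0.60 and an adjusted p of 0.994 in limma, although the mean count was 112 ± 22.5 (SD, n = 3) in 3xCR and 135 ± 93.8 (SD, n = 4) in GPC6 tumors.

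**Figure D2:**
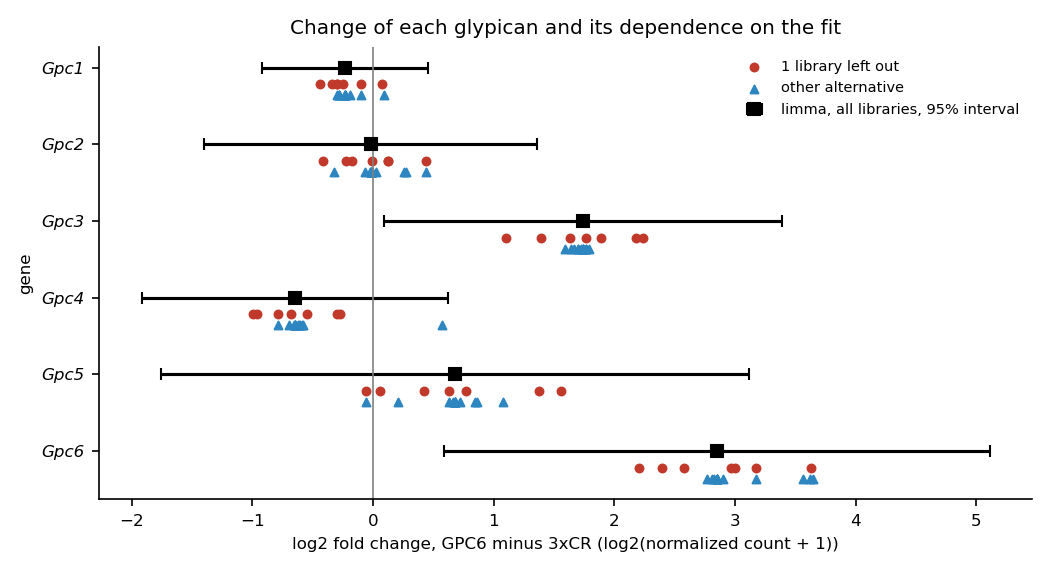
Log2 fold change of each glypican, GPC6 minus 3xCR, on the log2(normalized count + 1) scale, as black squares with 95% limma intervals, with red points for fits that leave out 1 library and blue triangles for the other alternatives. For Gpc3 and Gpc6 all points lie above 0, and for Gpc1, Gpc2, Gpc4 and Gpc5 they fall on either side of 0.

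To compare members with each other, counts were divided by the exon length of each gene, from 2.65 kb in Gpc4 to 6.42 kb in Gpc6. In 3xCR tumors the level was highest for Gpc1, at 372 ± 150.3 normalized counts per kb (SD, n = 3). It was followed by Gpc4 at 65.5 ± 32.9, Gpc5 at 33.6 ± 36.7, Gpc6 at 29.5 ± 8.62, Gpc2 at 26.3 ± 5.27 and Gpc3 at 12.9 ± 8.67. Of these neighbours in the order only Gpc1 and Gpc4 had ranges that did not overlap, so the order from Gpc4 to Gpc3 was not separated step by step from the spread between tumors. In GPC6 tumors Gpc6 led with 368 ± 357 per kb (SD, n = 4), and Gpc1 followed with 305 ± 54.3. Gpc6 exceeded Gpc1 in replicates 3 and 4 only. The other 4 members lay between 31.7 and 61.3 per kb on average, and among neighbours in this order only Gpc1 and Gpc5 had separate ranges.

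Gpc6 made up 7.06%, 7.95% and 2.796% of the summed glypican level per kb in 3xCR tumors. In GPC6 tumors its share was 17.7%, 9.09%, 49.2% and 62.0%. The mean shares were 5.93% ± 2.75 (SD, n = 3) and 34.5% ± 25.2 (SD, n = 4), and the exact two-sided permutation test gave p = 0.0571, the lowest possible. The remaining 5 members summed to 444, 407 and 680 per kb in 3xCR tumors and to 490.3, 409, 552 and 484 in GPC6 tumors, so the summed level of the others overlapped between groups. Reads of a transgene can only fall on the part of the gene that its cDNA holds, and the length used moves the level of Gpc6. Per kb of coding sequence, Gpc6 was the second of the 6 in 3xCR tumors, at 112 ± 32.7 (SD, n = 3), and its mean share was 7.98% and 40.9% in 3xCR and GPC6 tumors.

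**Figure D3:**
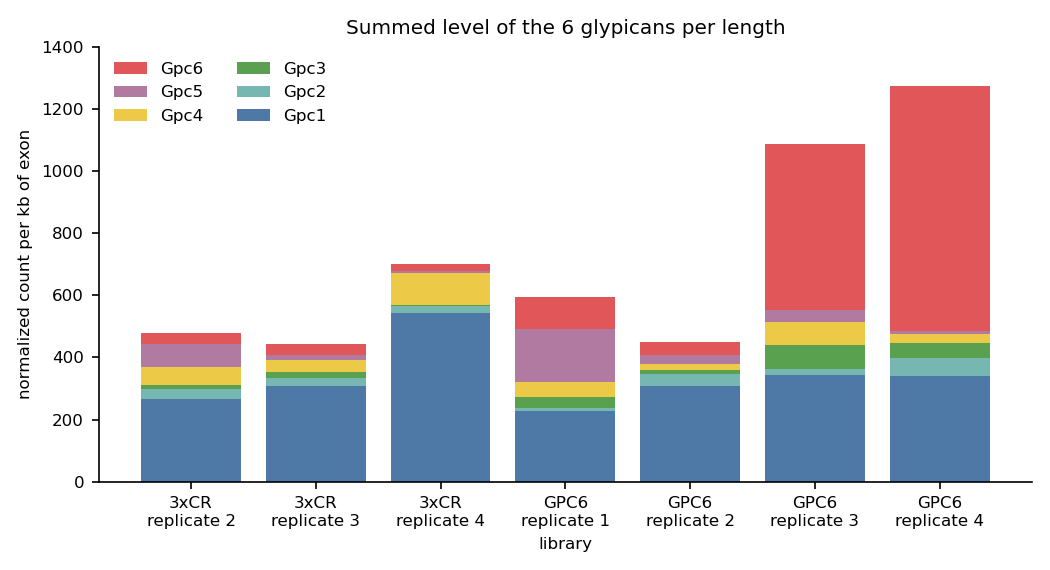
Stacked bars of the normalized count per kb of exon of the 6 glypicans in each library. The Gpc6 segment is 19.6 to 35.2 per kb in 3xCR tumors and reaches 534 and 791 in GPC6 replicates 3 and 4, while the Gpc1 segment is between 227 and 544 in all libraries.

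Each glypican was then set against Gpc6 over the 7 libraries on the log2 scale. The groups differ in Gpc6 by design, so a relation across all libraries also holds the difference between groups. Gpc3 had the closest relation, with Pearson's r = 0.87 (exact permutation p = 0.00456) and Spearman's rho = 0.93 (exact permutation p = 0.00675). This r was above that of 99.6% of the 14781 genes set against Gpc6, of which 813 (5.5%) had an unadjusted p below 0.05 and 0 (0%) an adjusted one. The adjusted p of Gpc3, from the exact permutation test over all genes, was 0.677. Without GPC6 replicates 3 and 4, the libraries farthest from the median of Gpc6, r was 0.89 over the 5 that remained (exact permutation p = 0.075).

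The other 4 members showed no such relation over the 7 libraries. Pearson's r with Gpc6 was -0.14 for Gpc1 (exact permutation p = 0.75, adjusted 0.974), 0.17 for Gpc2 (p = 0.700, adjusted 0.968), -0.10 for Gpc4 (p = 0.818, adjusted 0.982) and -0.06 for Gpc5 (p = 0.903, adjusted 0.993). Spearman's rho was 0 for Gpc1 (exact permutation p = 1), 0.11 for Gpc2 (p = 0.840), -0.43 for Gpc4 (p = 0.354) and -0.04 for Gpc5 (p = 0.963). Over the 5 libraries left after removal of GPC6 replicates 3 and 4, r was -0.84 for Gpc1, -0.63 for Gpc2, -0.32 for Gpc4 and 0.85 for Gpc5. The exact permutation p of these 4 values lay between 0.0583 and 0.583. Between other pairs of members the r of largest size was that of Gpc1 with Gpc5, -0.78, a description over the same 7 libraries.

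**Figure D4:**
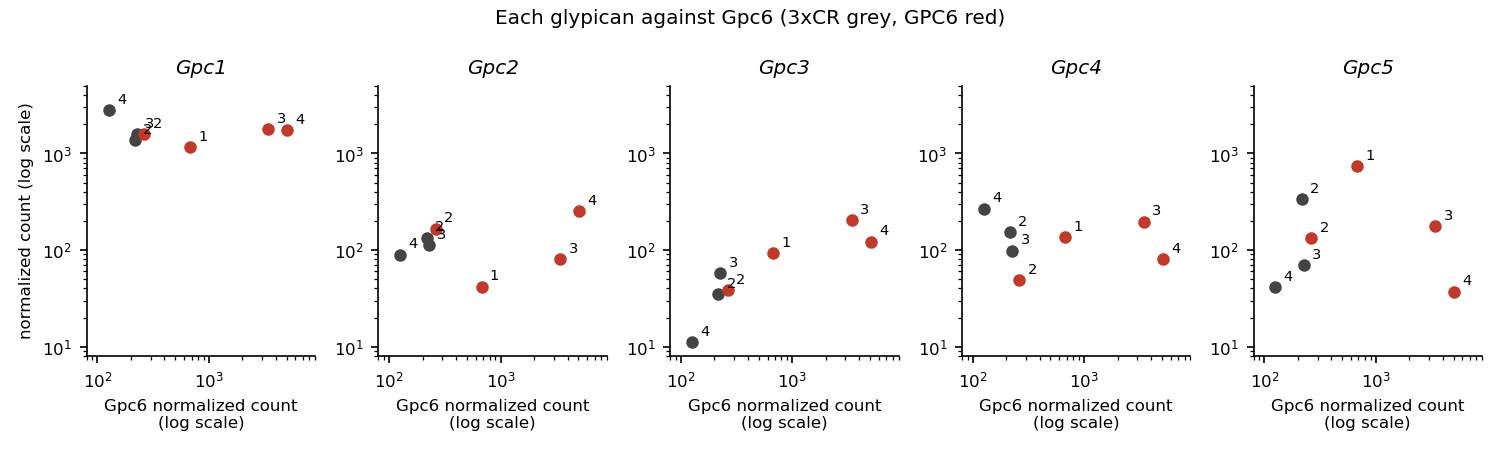
Normalized counts of Gpc1 to Gpc5 against that of Gpc6, both on log axes, with 3xCR libraries in grey, GPC6 libraries in red and points numbered by replicate. Of the 5 panels the Gpc3 one has the highest r, 0.87 over 7 libraries, with GPC6 replicate 3 above replicate 4.

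The genes whose log2 values followed each glypican most closely over the 7 libraries were found among all genes tested. For Gpc6 they included Prkab2, a subunit of the AMP-activated kinase (r = 0.96), and Fhit (r = 0.95). Prkab2 had normalized counts of 128 to 179 in 3xCR tumors and 253, 223, 439 and 393 in GPC6 replicates 1, 2, 3 and 4. For Gpc3 they were Nptx2, a neuronal pentraxin (r = 0.99), Papolg (r = 0.97) and Glt1d1 (r = 0.96). Nptx2 had 109, 110 and 5.52 normalized counts in 3xCR tumors and 283, 62.2, 1785 and 677 in GPC6 tumors, which repeats the order of Gpc3 but for neighbouring libraries. Gpc1 was followed by H2-Eb2 (r = 0.99), Slc10a3 (r = 0.98) and Hsp90b1, a chaperone of the endoplasmic reticulum (r = 0.98), and Gpc2 by Pot1a, a telomere protein (r = 0.995), AU019823 (r = 0.99) and Nit2 (r = 0.99). Gpc4 was followed by Slc25a38 (r = 0.96), Vnn1 (r = 0.94) and Pkig (r = 0.94), and Gpc5 by Trpc5, a cation channel (r = 0.99), Spire2 (r = 0.99) and Abhd3 (r = 0.99). With 7 points and this many genes, high values of r are found for any gene, and these names are a description.

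The glypicans were also set against the cell type marker scores, in 60 relations with exact permutation tests. None of the relations passed adjustment (0 of 60), while 9 had an unadjusted Pearson p below 0.05 and 6 an unadjusted Spearman p. Gpc2 was closest to the score of neural progenitors (r = 0.92, exact permutation p = 0.00139, adjusted 0.0833, rho = 0.93), and r was 0.90 without the 2 libraries of most extreme score. Gpc1 and Gpc5 lay on opposite sides of the astrocyte score, with r = -0.87 for Gpc1 (exact permutation p = 0.00417, adjusted 0.125, rho = -0.89) and r = 0.83 for Gpc5 (p = 0.0232, adjusted 0.238, rho = 0.86). Without 3xCR replicate 4 and GPC6 replicate 4 these became -0.64 and 0.65, with exact permutation p of 0.192 and 0.200. The other relations with an unadjusted Pearson p below 0.05 were those of Gpc5 with proliferating cells (r = -0.82, exact permutation p = 0.00893, adjusted 0.179), Gpc2 with choroid plexus and ependyma (r = -0.85, p = 0.0155, adjusted 0.232), Gpc2 with proliferating cells (r = 0.80, p = 0.0278, adjusted 0.238), Gpc1 with mural cells and fibroblasts (r = 0.82, p = 0.0268, adjusted 0.238) and those of Gpc3 and Gpc6 given next. Without the 2 libraries of most extreme score these became -0.55, -0.84, -0.07 and 0.55 in the order given.

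Gpc3 was closest to the neuron score (r = 0.77, exact permutation p = 0.0425, adjusted 0.283, rho = 0.79). Without GPC6 replicates 1 and 3, the libraries of most extreme neuron score, r was 0.85 (exact permutation p = 0.0833). All 10 neuron markers tested were higher on average in GPC6 tumors, with a median log2 difference of 1.66 and 3 below an unadjusted limma p of 0.05, a share to be read beside the 2.74% of all genes. The 3 calls, beside 405 of all genes called higher, became 0 without 3xCR replicate 3, 3xCR replicate 4 or GPC6 replicate 3. In these fits 168, 53 and 145 of all genes, in that order, were called higher. The calls among neuron markers became 1 without GPC6 replicate 1, the library of highest neuron score, where 199 of all genes were called higher. They became 6 without 3xCR replicate 2, where 633 of 14798 genes were called higher. They were also 6 without the library labelled GPC6 replicate 2, where 928 of 14831 genes were. Without GPC6 replicate 1 the median was 0.97. Their summed normalized count was 4981 to 8238 in 3xCR tumors and 6285 to 51676 in GPC6 tumors. Whether neuronal RNA takes part in the difference of Gpc3 was not tested. Gpc6 had r = -0.81 with the oligodendrocyte score (exact permutation p = 0.0353, adjusted 0.265), but rho was -0.32 and r was 0.69 without GPC6 replicates 3 and 4, so the negative value rested on these libraries. For Gpc4 the largest r was -0.65, with oligodendrocyte precursors (exact permutation p = 0.115, adjusted 0.511).

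**Figure D5:**
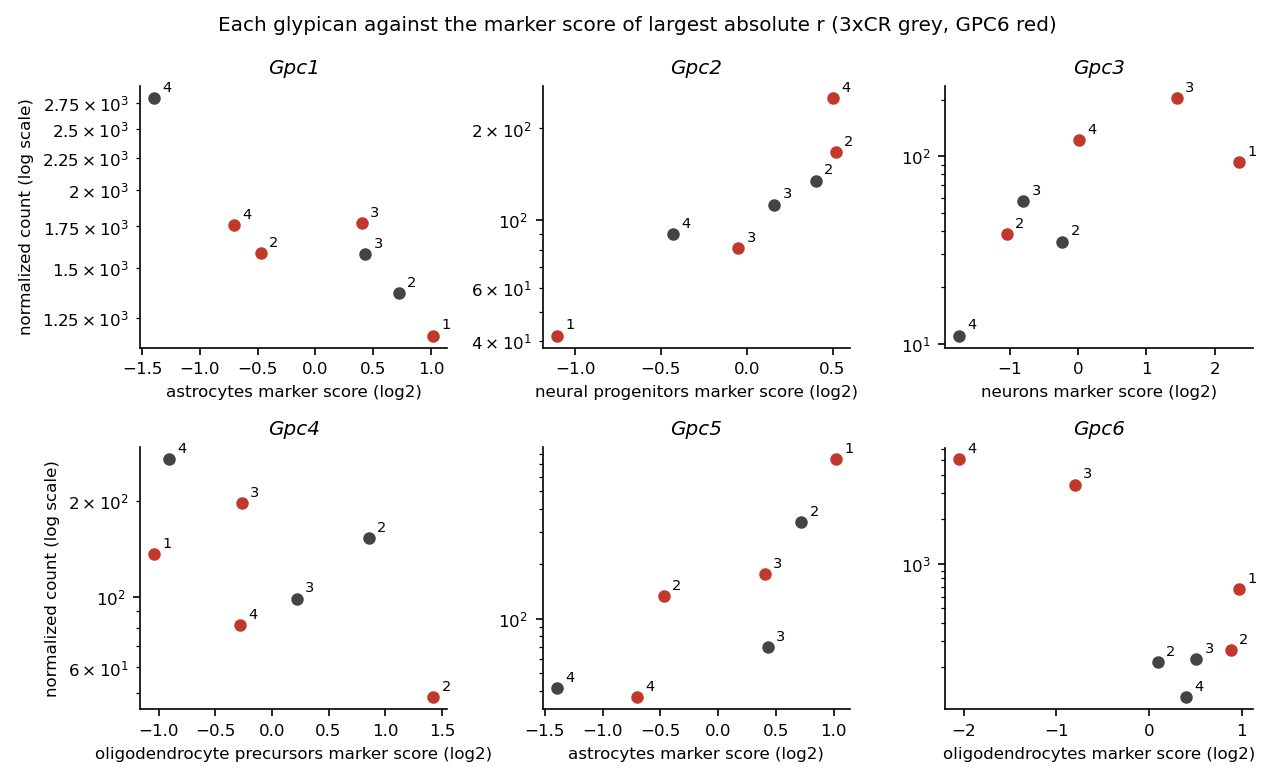
Normalized count of each glypican on a log axis against the cell type marker score with which its r was of largest size, a mean log2 difference from the average library, with 3xCR libraries in grey and GPC6 libraries in red. The Gpc2 points lie along a rising line (r = 0.92), the Gpc1 points along a falling one (r = -0.87), and in the Gpc6 panel 2 libraries at the left set the slope.

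Genes that act with glypicans were read from lists in the same fit. These lists were chosen with earlier results of these data known, so their values are a description. Over all 14782 genes the median log2 difference was -0.02, and 48.3% were higher in GPC6 tumors and 51.7% lower. Synaptic partners of glypicans stood highest, as the mean of log2 values was greater in GPC6 tumors for all 11, with a median log2 difference of 1.40, and 4 were below an unadjusted p of 0.05 in limma while 0 passed adjustment, beside 2.74% of all genes called higher. This median fell to 0.75 when 3xCR replicate 4 was left out and was 1.97 when 3xCR replicate 2 was. The 4 were Gpr158, a receptor bound by Gpc4, Nptx1 and Nptx2, which are neuronal pentraxins, and Gria2, an AMPA receptor subunit. Nptx1 had normalized counts of 808, 455 and 275 in 3xCR tumors and 3238, 761, 2541 and 797 in GPC6 tumors, a log2 difference of 1.68 with a standard error of 0.62 (limma adjusted p = 0.730). Only GPC6 replicates 1 and 3 lay above the highest 3xCR tumor. Gpr158 had 146, 74.4 and 18.0 in 3xCR tumors and 1864, 102, 517 and 191 in GPC6 tumors, a log2 difference of 2.64 with a standard error of 1.06. Ptprs, a receptor phosphatase that binds heparan sulfate, was the most abundant of the list, and its groups did not overlap, at 1840 to 2805 and 2892 to 3871 (limma adjusted p = 0.730). Nptxr was below 1 normalized count in all 3xCR tumors and in the library labelled GPC6 replicate 2, so its log2 difference of 3.17 depends on the pseudocount. The number of unadjusted calls in this list was 0 without 3xCR replicate 4, GPC6 replicate 1 or GPC6 replicate 3. In these fits 53, 199 and 145 of all genes, in that order, were called higher, beside 405 with all libraries. The number in the list was 1 without 3xCR replicate 3, where 168 of all genes were called higher. It was 7 without 3xCR replicate 2, where 633 of 14798 genes were called higher. The pentraxin and AMPA receptor genes of the list are known from neurons, whose marker values are given above. Whether neuronal RNA takes part in these differences was not tested.

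Enzymes that build and trim heparan sulfate were split, with 17 of 28 higher and 11 lower and a median log2 difference of 0.11. In limma 1 was called higher at an unadjusted p below 0.05, beside 405 of all 14782 genes. Without the library labelled GPC6 replicate 2 there were 5, beside 928 of 14831 genes. DESeq2 called 7 of 29 higher, beside 1293 of 19097 genes. The calls over all genes rose as well in these fits, by a smaller factor than in the list, which started from 1 call. The 1 gene called in limma with all libraries was Extl2, an exostosin-like glycosyltransferase that acts on the linker of the chains. It had normalized counts of 585, 511 and 488 in 3xCR tumors and 1054, 775, 829.4 and 1001 in GPC6 tumors. The groups did not overlap and the spread within each was small, but the log2 difference of 0.78 with a standard error of 0.20 did not pass adjustment (limma unadjusted p = 0.00442, limma adjusted p = 0.730). Sulf2, an extracellular sulfatase and the most abundant of them, had a log2 difference of -0.15 (limma adjusted p = 0.956), and the chain polymerases Ext1 and Ext2 were at -0.02 and -0.0011. The largest difference was that of the sulfotransferase Hs3st2, 2.17 with a standard error of 1.30, and the smallest that of Hs3st3b1, -1.02 with a standard error of 0.58.

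Of genes that release or process glypicans, 4 of 12 tested were higher and 8 lower, with a median log2 difference of -0.16 and 0 below an unadjusted p of 0.05 in limma. Hpse, which cuts heparan sulfate chains, had 806, 617 and 967 normalized counts in 3xCR tumors and 130, 360, 608 and 547 in GPC6 tumors. Its groups did not overlap, and its log2 difference was -1.15 with a standard error of 0.52 (limma unadjusted p = 0.0600, adjusted 0.730). All 8 microglia markers were lower on average in GPC6 tumors, beside 51.7% of all genes. Of the 8, 5 were below an unadjusted limma p of 0.05, beside 1.92% of all genes called lower. That count was 1 without 3xCR replicate 4, where 66 of all genes were called lower, and 3 without 3xCR replicate 3, where 211 were. Groups did not overlap for 5 of the 8, beside 3.52% of all genes. The summed normalized count of these markers was 23610 to 40964 in 3xCR tumors and 12677 to 20197 in GPC6 tumors. Whether microglial RNA takes part in the difference of Hpse was not tested. Notum, an enzyme that acts on Wnt proteins held by glypicans, had 2.79 to 17.0 normalized counts in 3xCR and 2.96 to 29.4 in GPC6 tumors.

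Of the other heparan sulfate proteoglycans, 5 of 11 were higher and 6 lower, with a median log2 difference of -0.13 that turned to 0.12 without 3xCR replicate 4 and to 0.02 without GPC6 replicate 1. The most abundant was the syndecan Sdc3 at -0.13. Spock2, a testican of the extracellular matrix, was the only one below an unadjusted limma p of 0.05. Its log2 difference was 1.92 with a standard error of 0.72 (limma adjusted p = 0.730). Of the list, 0 genes were called higher without 3xCR replicate 3, 3xCR replicate 4, GPC6 replicate 1 or GPC6 replicate 3. In these fits 168, 53, 199 and 145 of all genes, in that order, were called higher, beside 405 with all libraries. Spock2 had 1131, 503 and 254 normalized counts in 3xCR tumors and 5006, 1132, 3141 and 878 in GPC6 tumors. Its value in GPC6 replicate 4 thus fell within the 3xCR range. Ligands, receptors and targets of the signalling systems that glypicans bind showed 7 of 18 higher and 11 lower (median log2 difference -0.14), and enzymes that build the anchor 6 of 16 higher and 10 lower (median -0.08), with 0 in either list below an unadjusted p of 0.05 in limma. Values in them ran from -0.60 for the receptor Fgfr1 to 1.65 for the morphogen Shh, and from -0.61 for Pgap2 to 0.60 for Pgap1. The signalling median turned to 0.09 without 3xCR replicate 2 and to 0.005 without GPC6 replicate 4. The anchor median turned to 0.04 without GPC6 replicate 1 and to 0.007 without GPC6 replicate 3. Each stayed negative in the remaining fits that leave out a library. The value of Shh rests on few reads, at 1.38 to 6.58 normalized counts in 3xCR tumors and 3.09 to 34.0 in GPC6 tumors.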

How the data were processed

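RNA of 7 mouse tumors was sequenced from stranded poly(A) libraries. The authors aligned reads to mm10 with STAR 2.5.0a after FastQC, counted them on genes with Rsamtools and GenomicFeatures and divided the counts by DESeq2 1.20.0 size factors. What the authors deposited is therefore a normalized count, a signal on a linear scale without length correction. Whether strand was used and how multi-mapping reads were treated is not given in the sources used here. Of 19282 entries, 25 had names turned into dates (0.254% to 0.361% of reads) and were left out, leaving 19257 genes. All values (100%) lay within 0.01 of a whole read, so reads were recovered.

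The main test was limma 3.58.1 (R 4.3.3) of normalized counts as log2(value + 1), with a variance trend, two-sided, over genes averaging 10 or more. It was tested on simulated counts that had the same dispersion for every gene and no library that stood apart. That test does not cover the spread between these tumors. Groups come from the sample titles. Nothing but separate brains is known of the replicates, and no batch is named. Single values were compared by exact permutation. Exon lengths and coordinates are those of GENCODE for GRCm38. Alternatives were 2 pseudocounts, 2 filters, 2 scalings, other variance models, library weights, a replicate block, edgeR 4.0.16, voom, DESeq2 1.42.0 and leaving out each library. The members and gene lists were chosen with earlier results of these data known, and marker scores were set against glypicans after values had been seen. Named genes are the 6 members, the 3 genes most correlated with each (1 of them is not reported here), and of each list the most abundant and those of largest and smallest change. Extl2, Gria2, Gpr158, Nptx1, Ext1, Ext2 and Notum were named after their values were seen.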

Additional observations from a re-analysis of the deposited data

How the results depend on the processing

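Gpc3 and Gpc6 were higher in GPC6 tumors in all 20 alternatives. Weights per library passed an adjusted p of 0.05 for both, with log2 differences of 1.66 for Gpc3 (adjusted p = 0.0494) and 3.57 for Gpc6 (0.0290), and called 1962 genes. Such weights favour libraries that lie close to the fit. With these weights Gpc1 was at 0.0943 and Gpc4 at 0.57, a reversal. On recovered reads, edgeR called 0 genes at an adjusted p of 0.05 (991 unadjusted), voom 0 (499 unadjusted) and DESeq2 4 (1853 unadjusted), and DESeq2 gave Gpc6 an adjusted p of 0.0632. Over the alternatives the adjusted p of Gpc6 ran from 0.0290 to 0.999. Gpc2 turned to 0.0272 with scaling to an equal total, 0.25 in edgeR and 0.28 in DESeq2. The causes were not tested.

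Leaving out 1 library called 0 genes past adjustment in all 7 cases. The log2 difference then ran from -0.44 to 0.0748 for Gpc1, -0.42 to 0.44 for Gpc2, 1.10 to 2.24 for Gpc3, -0.99 to -0.27 for Gpc4, -0.0608 to 1.55 for Gpc5 and 2.20 to 3.63 for Gpc6. The correlation with Gpc6 ran from -0.27 to 0.51 for Gpc1, -0.44 to 0.37 for Gpc2, 0.81 to 0.91 for Gpc3, -0.40 to 0.24 for Gpc4 and -0.33 to 0.42 for Gpc5. The difference in the share of Gpc6 ran from 19.4 to 37.0 percentage points, against 28.6 with all libraries.

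Deviations of libraries with the same number correlated at -0.19, 0.12 and 0.30 for numbers 2, 3 and 4, so the numbers were not taken to pair them. A block for the replicate number, in which GPC6 replicate 1 has no partner, called 0 genes past adjustment (678 unadjusted) and gave 0.44 for Gpc2, -0.0608 for Gpc5 and 3.17 for Gpc6 (adjusted p = 0.809).

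Precision is limited by 3 and 4 tumors and, for Gpc3 in 3xCR replicate 4, by few reads.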
